A study of Mus musculus with 16 samples.

Results

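The Slc6a6-Wfdc1 cells were 834 of the 9036 single lung endothelial cells in the deposited UMI count table, where a UMI is a tag that marks 1 captured RNA molecule. A cell was counted as one when it met 4 conditions on 14 genes. It held a UMI of Gpihbp1 or Plvap, the pair used as a capillary gate. It held at least 2 of the 4 genes Slc6a6, Wfdc1, Car14 and Pcp4l1, here set B. It held more genes of set B than of set A, which is Lpl, Cadm1, Sox11 and Npr3. It held fewer than 2 of the aerocyte genes Ednrb, Fibin, Tbx2 and Chst1. These 14 genes chose the cells, so their levels and shares are a description, and every count of called genes leaves them out.

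The cells came from the lungs of C57BL/6N female mice and were isolated by FACS, with 10000 sorted cells used for library preparation on the 10x Genomics 3′ v2 chemistry. The 4 time points were wild-type mice at d0, mice bearing a primary tumour at d15, mice after resection of that tumour at d22 and mice bearing metastases at d36. The tumour was Lewis Lung Carcinoma, a transplantable mouse lung cancer line, implanted under the skin. The labels state no tumour-free mice kept to d15, d22 or d36, so time after d0, surgery and tumour stage cannot be told apart. Each time point had 4 libraries, but the cell names carry only the day, and all cells of a day were treated as 1 pooled sample. No test of a difference between days or cell groups was therefore possible. Ratios are given with an exact binomial 95% interval that covers counting error only, not the spread between mice, libraries or cells. In all, 36 barcodes occurred at more than 1 day, among them those of 7 Slc6a6-Wfdc1 cells.

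Gas exchange in the mouse lung runs through a capillary net of 2 endothelial kinds. Aerocytes are large, thin cells that lie against the air space and are marked by Car4, Ednrb and Apln. General capillary cells carry Gpihbp1, Plvap and Aplnr, maintain the net after injury and, in many of them, carry MHC class II. Larger vessels feed and drain the net: arterial endothelium is marked by Sox17, Gja4, Efnb2 and Cxcl12, and venous endothelium by Vwf, Slc6a2, Vcam1 and Nr2f2. Slc6a6 is the taurine transporter, Wfdc1 a secreted protein with a whey acidic protein domain, Car14 a membrane-bound carbonic anhydrase and Pcp4l1 a small relative of the calmodulin-binding protein Pcp4. Of the genes that count against a cell, Lpl is lipoprotein lipase, which Gpihbp1 anchors at the capillary wall, Cadm1 a cell adhesion molecule, Sox11 a transcription factor and Npr3 the clearance receptor of natriuretic peptides.

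The endothelial identity of the Slc6a6-Wfdc1 cells held at every day. The 12 pan-endothelial genes summed to 16074, 20972, 18112 and 18902 CPM, UMIs scaled to the same total in each group, at d0, d15, d22 and d36 in the Slc6a6-Wfdc1 cells, and to 18980, 21547, 20652 and 19474 CPM in all other cells. The 8 general capillary genes outside the rule summed to 7629, 8380, 7775 and 7817 CPM in Slc6a6-Wfdc1 cells, and to 6721, 7183, 6823 and 7195 CPM in all other cells. Kit, the stem cell factor receptor and one of these markers, stood at 157, 198, 143 and 122 CPM in Slc6a6-Wfdc1 cells and at 128, 136, 100.5 and 104 CPM in all other cells. The capillary markers were thus present throughout, with all 8 above 0 at each day. Markers of other types were low: 5 pan-leukocyte genes summed to 35.99 to 63.9 CPM over the 4 days in Slc6a6-Wfdc1 cells, and 8 fibroblast genes to 0 to 23.7 CPM. At d0 alone, 1 member was rich in epithelial and 1 in erythroid transcripts, taking the summed erythroid and platelet genes to 5936 CPM at d0, against 11.98 to 32.3 CPM at the later days. The label of a general capillary cell holds less well at one end of the group, where venous genes were high, as described with the pairs of set B genes.

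Most members sat close to the rule. Of the 834 cells, 569 held exactly 2 genes of set B, 229 held 3 and 36 held all 4. A set A gene was also found in many: 252 members held none, 473 held 1, 107 held 2 and 2 held 3. Just inside, the cells with exactly 2 of set B had a median of 7403 UMIs. Just outside, 649 capillary-gated cells held 1 gene of set B and more of it than of set A, with a median of 4953 UMIs. Another 391 cells tied between the sets at a median of 8545 UMIs, 236 held fewer of set B than of set A at 9556, 33 were kept out by 2 or more aerocyte genes at 15969, and 21 lacked both Gpihbp1 and Plvap at 5365. The rule thus reads depth as well as identity, since a shallower cell shows fewer genes.

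The 4 set B genes were moderately abundant. Wfdc1 averaged 504, 677, 543 and 503 CPM in Slc6a6-Wfdc1 cells at d0, d15, d22 and d36, against 224, 192, 161 and 99.3 CPM in the Lpl-Cadm1 cells, the 2320 capillary-gated cells chosen by the mirror-image rule on set A. Slc6a6 stood at 302, 392, 479 and 339 CPM in Slc6a6-Wfdc1 cells, against 54.5, 67.9, 63.5 and 61.4 CPM in the Lpl-Cadm1 cells. Car14 stood at 282, 472, 316 and 479 CPM in Slc6a6-Wfdc1 cells and at 109, 97.2, 106 and 101 CPM in Lpl-Cadm1 cells. Pcp4l1 stood at 361, 379, 290.2 and 403 CPM in Slc6a6-Wfdc1 cells and at 119, 99.4, 95.2 and 83.8 CPM in Lpl-Cadm1 cells. All 4 were higher in Slc6a6-Wfdc1 cells at each day, which the rule sets. With every cell thinned to 2500 UMIs, so that depth was equal, a Wfdc1 UMI was found in 65.9%, 68.2%, 65.1% and 55.4% of Slc6a6-Wfdc1 cells. In aerocyte-gated cells, which the markers place outside the general capillary, the share was 5.68%, 0.763%, 3.62% and 2.22%. The source of these UMIs was not tested. Slc6a6 was found in 41.1%, 35.3%, 46.3% and 41.9% of thinned Slc6a6-Wfdc1 cells, against 1.37%, 2.29%, 2.41% and 1.48% of aerocyte-gated cells. Both genes were found far more often in Slc6a6-Wfdc1 cells by construction. Before thinning, the median depth was 8716, 5524, 8128 and 5598 UMIs in Slc6a6-Wfdc1 cells and 12733, 6803, 13299 and 4992 UMIs in aerocyte-gated cells.

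The 4 genes did not mark the same cells evenly. In capillary-gated cells thinned to 2500 UMIs, Slc6a6 and Wfdc1 were found together 1.36, 1.20, 1.52 and 1.66 times as often as the product of their shares at d0, d15, d22 and d36. Car14 and Pcp4l1 were found together 1.24, 1.85, 1.40 and 1.41 times as often as that product. Wfdc1 and Car14 gave 1.12, 1.37, 1.13 and 1.05, and Slc6a6 and Car14 gave 1.11, 1.05, 1.07 and 0.819. Slc6a6 and Pcp4l1 gave 0.792, 0.931, 0.847 and 1.26, and Wfdc1 and Pcp4l1 gave 0.994, 0.969, 0.839 and 1.08. Over all 6 pairs within set B the ratio was 1.11, 1.22, 1.14 and 1.21, against 1.06, 1.07, 1.00 and 1.01 over the pairs of a set B gene with a set A gene. Of the 6 pairs, Slc6a6 with Wfdc1, Car14 with Pcp4l1 and Wfdc1 with Car14 were above the product of shares at all 4 days, and at d15 Wfdc1 with Car14 was above Slc6a6 with Wfdc1. Being above it at all 4 days was not particular to set B. Some pairs across the sets were as well, among them Car14 with Cadm1 (1.18, 1.34, 1.14 and 1.35) and Wfdc1 with Npr3 (1.29, 1.18, 1.03 and 1.35).

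The promoters of 4 genes are shown because the results turn on them: Car14 and Pcp4l1 from the rule, and Cxcl12 and Gja4 from the arterial genes that differed between the ends of the group. Each run is 300 bases, from 250 before to 50 after the start site, taken from RefSeq on GRCm38.p6 and written 5′ to 3′ on the gene's strand. Car14 is at chr3:95904636-95904935 (minus strand), Pcp4l1 at chr1:171196219-171196518 (minus strand), Cxcl12 at chr6:117168285-117168584 (plus strand) and Gja4 at chr4:127313990-127314289 (minus strand). Capitals mark a match, on either strand, to 1 of 7 motifs searched: CCGGAA for ETS factors, ACAATG for SOX factors, GTAAACA for forkhead factors, CCACCC for KLF factors, AGATAA for GATA factors, CACGTG for E-box factors and TATAAA for the TATA-binding protein.
Car14: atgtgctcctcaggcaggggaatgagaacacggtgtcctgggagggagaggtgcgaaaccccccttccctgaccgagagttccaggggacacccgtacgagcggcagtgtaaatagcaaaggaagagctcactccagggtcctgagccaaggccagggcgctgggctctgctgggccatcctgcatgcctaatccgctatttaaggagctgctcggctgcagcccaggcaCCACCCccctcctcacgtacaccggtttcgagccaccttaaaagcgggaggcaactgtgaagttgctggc
Pcp4l1: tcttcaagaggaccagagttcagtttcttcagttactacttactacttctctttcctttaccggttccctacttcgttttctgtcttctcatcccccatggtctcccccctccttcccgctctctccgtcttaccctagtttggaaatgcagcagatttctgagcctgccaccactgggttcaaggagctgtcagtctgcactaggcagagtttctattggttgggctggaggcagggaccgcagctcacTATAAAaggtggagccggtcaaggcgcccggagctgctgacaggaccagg
Cxcl12: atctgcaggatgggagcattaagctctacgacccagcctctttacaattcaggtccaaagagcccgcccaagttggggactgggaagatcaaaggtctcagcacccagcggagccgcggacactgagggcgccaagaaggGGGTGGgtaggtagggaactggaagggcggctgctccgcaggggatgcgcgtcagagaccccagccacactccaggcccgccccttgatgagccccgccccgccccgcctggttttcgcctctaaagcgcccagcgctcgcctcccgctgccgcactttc
Gja4: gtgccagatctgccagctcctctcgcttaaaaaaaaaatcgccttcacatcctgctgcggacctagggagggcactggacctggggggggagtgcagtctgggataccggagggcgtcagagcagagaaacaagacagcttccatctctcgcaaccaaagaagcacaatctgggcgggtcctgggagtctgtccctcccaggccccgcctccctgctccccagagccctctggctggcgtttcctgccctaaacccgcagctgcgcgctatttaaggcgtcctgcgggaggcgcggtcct
The Car14 window held CCACCC at position -20 from the start site. The Cxcl12 window held the same motif on the minus strand at -110, which reads GGGTGG in the printed strand. The Pcp4l1 window held TATAAA at the start site, and the Gja4 window held none of the 7. The KLF letters occurred in 31.5% of 32851 mouse promoter windows of this length, and the TATA letters in 13.6%. SOX letters, found in 12.6% of all windows, were in none of these 4. A match in these windows is a description of the letters only.

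Members were then split by which pair of set B genes they held, a split chosen after values had been seen. Cells with Slc6a6 and Wfdc1 and neither of the other two numbered 174 (58, 16, 84 and 16 by day). Cells with Car14 and Pcp4l1 and neither of the other two numbered 91 (24, 13, 39 and 15 by day). The other 569 members were mixed. The ends differed in genes of the artery to vein axis. Of 8 arterial genes measured, 4 were called higher in the Slc6a6 and Wfdc1 cells and 1 lower. All 6 venous genes measured were called lower there. A gene was called higher or lower when its ratio was at least 1.5 or at most 0.667 with an interval clear of 1, here at both d0 and d22, the days with more cells. Of 2505 genes with at least 50 CPM in either end and 50 UMIs over both, 124 were called higher (4.95%) and 83 lower (3.31%). With cells thinned to 2500 UMIs 27 were higher and 18 lower, of which 19 and 10 were among those.

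**Figure D1:**
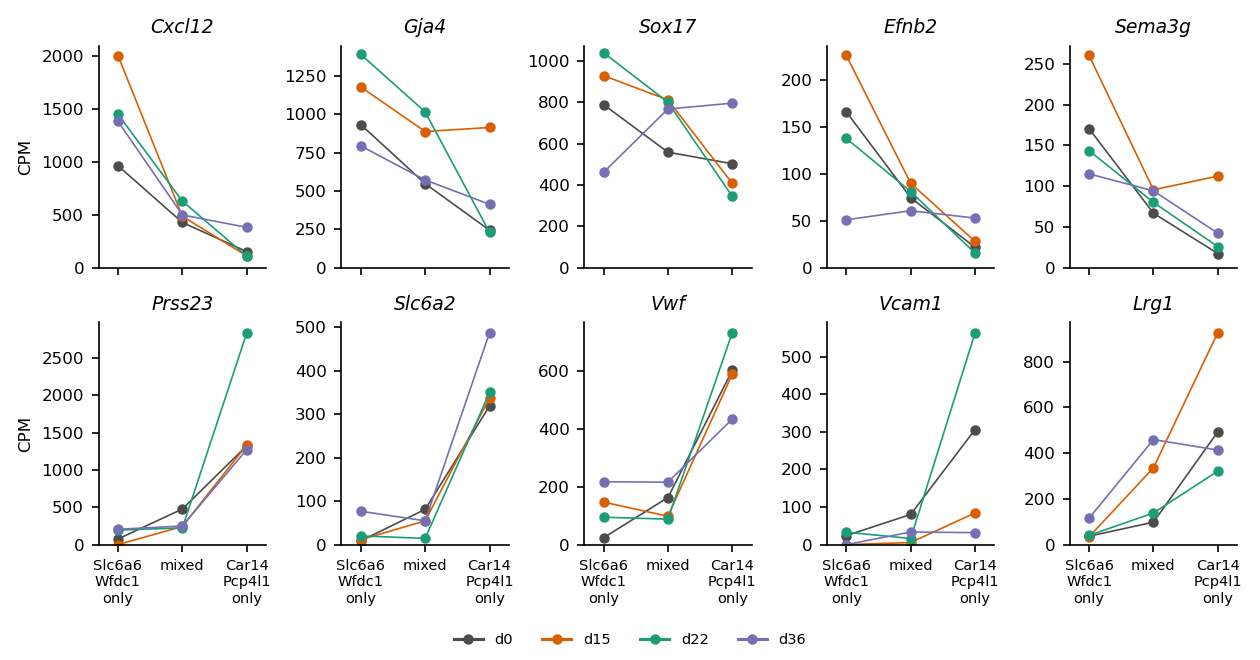
CPM of 10 genes (linear axes) in members with Slc6a6 and Wfdc1 only (174 cells), mixed members (569) and members with Car14 and Pcp4l1 only (91), 1 line and point per day. The upper row holds chosen genes of the arterial list and Sema3g, all higher at the left end at d0 and d22. The lower row holds genes that were higher at the right end at those days. Sox17 and Efnb2 did not follow the other days at d36.

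Cxcl12, a chemokine that arterial endothelium makes, stood at 963, 2004, 1449 and 1383 CPM at d0, d15, d22 and d36 in the Slc6a6 and Wfdc1 cells, at 428, 486, 630.0 and 499 CPM in mixed members and at 153, 112, 109 and 382 CPM in the Car14 and Pcp4l1 cells. The 3 groups did not overlap in their daily values. The ratio of the ends was 6.297 (4.46 to 9.16) at d0 and 13.3 (9.77 to 18.6) at d22, and the mean log2 ratio over the 4 days was 3.09 ± 1.04 (SD over days, n = 4). Gja4, the arterial gap junction protein connexin 37, stood at 933, 1178, 1389.9 and 794 CPM in the Slc6a6 and Wfdc1 cells and at 245, 914, 231 and 414 CPM in the Car14 and Pcp4l1 cells, higher in the Slc6a6 and Wfdc1 cells at each day. Efnb2, the ephrin ligand of arteries, stood at 166, 226, 138 and 51.2 CPM in the Slc6a6 and Wfdc1 cells and at 21.9, 28.1, 15.6 and 53.02 CPM in the Car14 and Pcp4l1 cells, nearly level at d36. Sema3g, a secreted semaphorin of arterial endothelium, stood at 171, 260.4, 144 and 115 CPM in the Slc6a6 and Wfdc1 cells and at 17.5, 112, 25.9 and 42.4 CPM in the Car14 and Pcp4l1 cells. The ephrin receptor Epha4 stood at 153, 136, 105 and 51.2 CPM in the Slc6a6 and Wfdc1 cells and at 17.5, 14.1, 15.6 and 0 CPM in the Car14 and Pcp4l1 cells, and so also ran the same way at each day. Sema3g and Epha4 were not in the arterial list and were named by the size of their ratios. Sox17, a transcription factor of arterial fate, stood at 788, 928, 1039 and 461 CPM in the Slc6a6 and Wfdc1 cells and at 503, 408, 345 and 795 CPM in the Car14 and Pcp4l1 cells, so its direction turned at d36.

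Of 8 arterial genes measured, 4 were called higher in the Slc6a6 and Wfdc1 cells and 1 lower, with a median log2 ratio of 1.06, against -0.01 over all genes measured (0.74 when an end without a UMI was set to a floor of 3 counts). Of these 8, 2 had a ratio above 1 at every day and 1 had a ratio below 1 at every day. The arterial genes given above with values for both ends were all higher at d0 and d22. They do not stand for the whole list. Summed over 15 arterial genes, the level was 3815, 4891, 4763 and 3661 CPM in the Slc6a6 and Wfdc1 cells and 1884, 2418, 1932 and 2450 CPM in the Car14 and Pcp4l1 cells. The Lpl-Cadm1 cells lay near the Car14 and Pcp4l1 cells, at 2225, 2493, 2342 and 2318 CPM. The genes of mature large arteries were nearly absent: Bmx, a kinase of arterial endothelium, stood at 17.3, 11.3, 25.9 and 51.2 CPM and Gja5, connexin 40, at 2.16, 0, 11.5 and 0 CPM in the Slc6a6 and Wfdc1 cells. Another gene called higher there was Plat, tissue plasminogen activator, at 164, 260.4, 264 and 371 CPM in the Slc6a6 and Wfdc1 cells and 39.3, 0, 25.9 and 223 CPM in the Car14 and Pcp4l1 cells. Also higher there was Smad6, an inhibitor of BMP signalling, at 225, 362, 305 and 474 CPM in the Slc6a6 and Wfdc1 cells and at 30.6, 112, 49.3 and 255 CPM in the Car14 and Pcp4l1 cells.

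Venous genes marked the smaller end. All 6 venous genes measured were called lower in the Slc6a6 and Wfdc1 cells, with a median log2 ratio of -4.46, or -2.65 when an end without a UMI was set to a floor of 3 counts. Prss23, a serine protease of venous endothelium, stood at 75.6, 0, 194 and 205 CPM in the Slc6a6 and Wfdc1 cells, at 477, 243, 224 and 249.6 CPM in mixed members and at 1325, 1336, 2835 and 1273 CPM in the Car14 and Pcp4l1 cells. Slc6a2, the noradrenaline transporter that lung veins carry, stood at 8.64, 11.3, 20.1 and 76.8 CPM in the Slc6a6 and Wfdc1 cells and at 319, 337, 350.2 and 488 CPM in the Car14 and Pcp4l1 cells. The ends did not overlap for either gene. Vwf, von Willebrand factor, stood at 23.8, 147, 94.9 and 218 CPM in the Slc6a6 and Wfdc1 cells and at 603, 590.5, 734 and 435 CPM in the Car14 and Pcp4l1 cells, again without overlap. Vcam1, the adhesion molecule for leukocyte integrins, stood at 23.8, 0, 33.1 and 0 CPM in the Slc6a6 and Wfdc1 cells and at 306, 84.4, 563 and 31.8 CPM in the Car14 and Pcp4l1 cells, overlapping only in that the Car14 and Pcp4l1 cells at d36 lay below the Slc6a6 and Wfdc1 cells at d22. Nr2f2, the transcription factor of venous fate, was too low to be measured, at 10.8, 33.97, 1.44 and 0 CPM in the Slc6a6 and Wfdc1 cells and at 8.74, 0, 51.9 and 0 CPM in the Car14 and Pcp4l1 cells.

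Some genes outside the venous list were also higher in the Car14 and Pcp4l1 cells. Of 10 leukocyte adhesion genes measured, 5 were called lower and 1 higher in the Slc6a6 and Wfdc1 cells, with a median log2 ratio of -1.30. Over all genes measured, 3.31% were called lower and 4.95% higher. Genes of the venous list were not taken out of the leukocyte adhesion count. Icam1, the second main ligand for leukocyte integrins, stood at 97.2, 147, 197 and 89.6 CPM in the Slc6a6 and Wfdc1 cells and at 525, 449.9, 711 and 223 CPM in the Car14 and Pcp4l1 cells. Lrg1, a leucine-rich glycoprotein released in inflammation, stood at 36.7, 33.97, 40.2 and 115 CPM in the Slc6a6 and Wfdc1 cells and at 494, 928, 322 and 414 CPM in the Car14 and Pcp4l1 cells, and the 2 ends did not overlap. The decoy chemokine receptor Ackr3, which takes up Cxcl12, stood at 51.8, 0, 50.3 and 89.6 CPM in the Slc6a6 and Wfdc1 cells and at 271, 56.2, 329 and 117 CPM in the Car14 and Pcp4l1 cells. Vegfc, a growth factor for lymphatic vessels, stood at 104, 90.6, 66.1 and 0 CPM in the Slc6a6 and Wfdc1 cells and at 201, 590.5, 309 and 84.8 CPM in the Car14 and Pcp4l1 cells, higher in the Car14 and Pcp4l1 cells at every day. Bgn, the matrix proteoglycan biglycan, stood at 38.9, 0, 18.7 and 51.2 CPM in the Slc6a6 and Wfdc1 cells and at 310.4, 337, 337 and 244 CPM in the Car14 and Pcp4l1 cells. Interferon response genes were not called in either direction (0 of 18, median log2 ratio -0.63), nor were 31 nuclear genes of oxidative phosphorylation (median -0.15).

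Counted per cell, 18 of the 174 Slc6a6 and Wfdc1 cells (10.3%) and 43 of the 91 Car14 and Pcp4l1 cells (47.3%) held 3 or more venous genes, and 21.1% of the mixed members did. With cells thinned to 2500 UMIs the shares were 5.88%, 42.5% and 11.3%. In the Lpl-Cadm1 cells the thinned share was 7.89%, and in aerocyte-gated cells, which should lack venous genes, 1.47%. By day the unthinned share was 10.3%, 6.25%, 9.52% and 18.8% in the Slc6a6 and Wfdc1 cells and 58.3%, 23.1%, 56.4% and 26.7% in the Car14 and Pcp4l1 cells, above at each day. The median depth was 7981, 5422, 7782 and 4894 UMIs in the Slc6a6 and Wfdc1 cells and 9235, 4934, 8786 and 5973 UMIs in the Car14 and Pcp4l1 cells. Summed over 14 venous genes, the level was 514, 509.5, 661 and 1255 CPM in the Slc6a6 and Wfdc1 cells and 4568, 4302, 6768 and 3128 CPM in the Car14 and Pcp4l1 cells. The 8 lymphatic genes summed to 30.2, 0, 74.7 and 12.8 CPM in the Slc6a6 and Wfdc1 cells and to 96.2, 28.1, 952 and 0 CPM in the Car14 and Pcp4l1 cells, and their part in the difference was not tested. General capillary genes were nearly level, at 7675, 8085, 7445 and 8590 CPM in the Slc6a6 and Wfdc1 cells and 6711, 8618, 6451 and 7306 CPM in the Car14 and Pcp4l1 cells. The label of a general capillary cell therefore covers the capillary markers of both ends. In close to 1 in 2 of the Car14 and Pcp4l1 cells, however, 3 or more venous genes were present beside them. Arterial genes were present too: 50 of these 91 cells (54.9%) held 3 or more, against 80.5% of the Slc6a6 and Wfdc1 cells. With cells thinned to 2500 UMIs these shares were 39.1% and 65.9%, and 40.2% in the Lpl-Cadm1 cells.

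The direction of these differences was read again in days and cells that had not set the calls. The split itself was chosen after values had been seen, so these readings are not independent of it and are a description. Of the 124 genes called higher, 87 had a ratio above 1 at d15 and 70 at d36, where 1229 and 1224 of all 2505 genes did. Of the 83 called lower, 52 had a ratio below 1 at d15 and 50 at d36. For the lower direction the counts over all genes are not given. The end groups held 13 to 16 cells at those days, so single genes there rest on few UMIs. A further reading used 649 cells outside the rule that held only 1 gene of set B, 346 with Slc6a6 or Wfdc1 and 303 with Car14 or Pcp4l1. There, 96 of the 124 genes had a mean log2 ratio above 0, as did 1296 of all 2505, and 65 of the 83 a mean below 0. The median log2 ratio was 0.33 for the 124 and -0.34 for the 83. Cxcl12 stood at 1189, 850.3, 805 and 1195 CPM in the cells with Slc6a6 or Wfdc1 and at 229.7, 497, 445 and 284 CPM in the cells with Car14 or Pcp4l1, without overlap.

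Against all other cells of the table, few genes outside the rule were higher, and the lower ones included most aerocyte genes. With 3247 genes measured at all 4 days (at least 50 CPM in either group and 200 UMIs over both), 10 were called higher at every day (0.308%) and 43 lower (1.32%). The 10 were Vegfc, Ass1, Cxcl12, Adam15, Sox17, H2-Ab1, H2-Aa, Cd74, Gja4 and Lipe. Cxcl12 stood at 492, 691, 748 and 615 CPM in Slc6a6-Wfdc1 cells and at 273, 365, 340.2 and 384 CPM in all other cells, a mean log2 ratio of 0.89 ± 0.19 (SD over days, n = 4). Vegfc stood at 132, 215, 112 and 116 CPM in Slc6a6-Wfdc1 cells and at 70.5, 82.9, 62.2 and 60.8 CPM in all other cells (1.00 ± 0.24). Neither overlapped between the groups. Ass1, the arginine-making enzyme argininosuccinate synthase, stood at 167, 213, 129 and 204 CPM in Slc6a6-Wfdc1 cells and at 81.97, 107, 76.6 and 111 CPM in all other cells (0.91 ± 0.13). Adam15, a membrane metalloprotease, stood at 333, 401, 318 and 453 CPM in Slc6a6-Wfdc1 cells and at 197, 232, 179 and 203 CPM in all other cells (0.88 ± 0.19). Lipe, hormone-sensitive lipase, stood at 83.2, 150.3, 79.7 and 136 CPM in Slc6a6-Wfdc1 cells and at 48.3, 86.6, 46.3 and 79.9 CPM in all other cells (0.77 ± 0.01). Of the arterial list, Mgp was among the genes called lower at every day. Sox17, of the same list, stood at 591, 776, 797 and 725 CPM in Slc6a6-Wfdc1 cells and at 326, 463, 343 and 462 CPM in all other cells (0.87 ± 0.25). Gja4 stood at 586, 939.9, 1002 and 577 CPM in Slc6a6-Wfdc1 cells and at 364, 551, 502 and 361 CPM in all other cells (0.78 ± 0.15). Of the 10 higher genes, 6 kept the groups apart at all days: Vegfc, Ass1, Cxcl12, Adam15, Sox17 and Gja4. Choosing genes at least 1.5-fold higher at each day favours such a gap, and the share over all genes is not given.

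**Figure D2:**
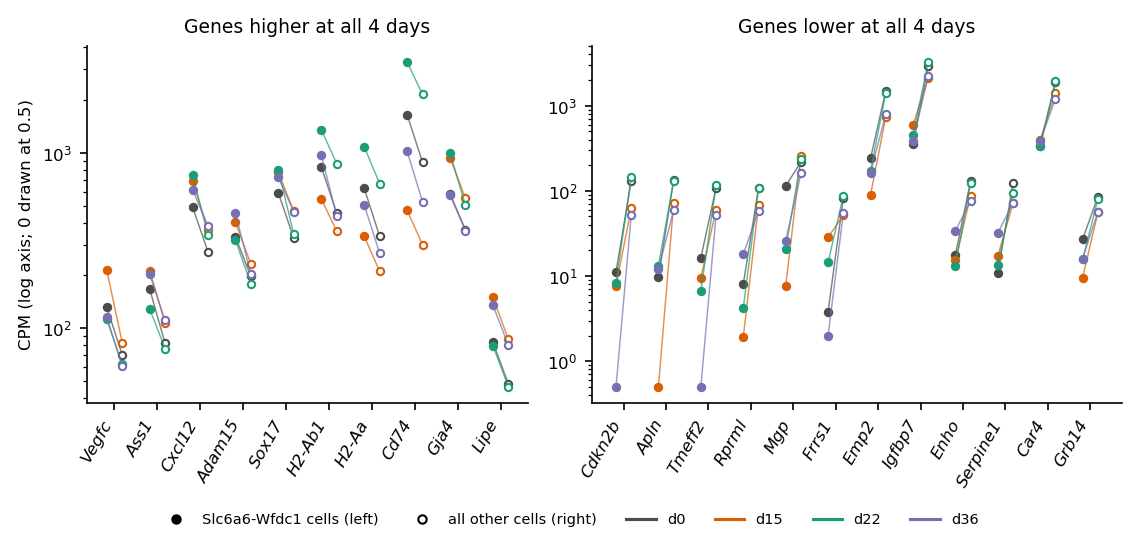
CPM (log axis, 0 drawn at 0.5) of the genes called at all 4 days in Slc6a6-Wfdc1 cells (filled, left) and all other cells (open, right), 1 colour per day: the 10 higher genes and the 12 lower genes with the largest mean log2 ratio. Every line slopes the same way within a panel, and the lower genes include the aerocyte markers Car4, Apln, Emp2 and Igfbp7.

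MHC class II genes, which present antigen to CD4+ T cells, made up 3 of the 10. Cd74, the invariant chain, stood at 1656, 472, 3312 and 1024 CPM in Slc6a6-Wfdc1 cells and at 886, 299, 2156 and 528 CPM in all other cells, with a mean log2 ratio of 0.78 ± 0.17. The gap between days was wider than the gap between the groups, since both were lowest at d15 and highest at d22. H2-Ab1, a class II beta chain, stood at 834, 548, 1357 and 974 CPM in Slc6a6-Wfdc1 cells and at 454, 358, 870.3 and 436 CPM in all other cells. H2-Aa, an alpha chain, stood at 629.5, 335, 1086 and 507 CPM in Slc6a6-Wfdc1 cells and at 335, 212, 669 and 268 CPM in all other cells. Of 6 class II genes measured, 3 were called higher, with a median log2 ratio of 0.79, against 0.00 over all genes. Against the Lpl-Cadm1 cells none of 4 class II genes was called at all 4 days (median 0.31), and Cd74 stood there at 1423, 416, 3067 and 598 CPM. Among 9 arterial genes, set against all other cells, 3 were called higher (Cxcl12, Sox17 and Gja4) and 1 lower (Mgp), with a median of 0.02. Of 6 venous genes none was called (median 0.20).

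The lower genes were led by those of aerocytes. Car4, the carbonic anhydrase that marks aerocytes, stood at 340.2, 396, 337 and 387 CPM in Slc6a6-Wfdc1 cells and at 1872, 1402, 1975 and 1204 CPM in all other cells (-2.11 ± 0.45). Apln, the ligand of the apelin receptor that general capillary cells carry, stood at 9.75, 0, 13.2 and 11.98 CPM in Slc6a6-Wfdc1 cells and at 136, 71.97, 132 and 59.4 CPM in all other cells. Emp2, an epithelial membrane protein, stood at 241, 89.4, 172 and 162 CPM in Slc6a6-Wfdc1 cells and at 1497, 741, 1418 and 806 CPM in all other cells. Of 8 aerocyte genes outside the rule, 7 were called lower (median log2 ratio -1.85). Since the rule keeps out cells with 2 or more aerocyte genes, that direction follows from the choice of cells. Igfbp7, which binds insulin-like growth factors, stood at 350.3, 589.8, 447 and 387 CPM in Slc6a6-Wfdc1 cells and at 2900.1, 2112, 3281 and 2215 CPM in all other cells. Kdr, the main VEGF receptor, stood at 135, 131, 141 and 97.8 CPM in Slc6a6-Wfdc1 cells and at 413, 347, 422 and 328 CPM in all other cells (-1.58 ± 0.14). Icam1 stood at 212, 207, 241 and 189.6 CPM in Slc6a6-Wfdc1 cells and at 403, 432, 427 and 375 CPM in all other cells (-0.94 ± 0.10).

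Taking the aerocyte-gated cells out of the cells compared left 0 genes called higher and 4 lower. Against the other capillary-gated cells alone, 0 of 3189 genes were called higher at all 4 days (0%) and 3 lower (0.0941%), the 3 being Mgp, Fabp4 and Apoe. Cxcl12 there stood at 492, 691, 748 and 615 CPM in Slc6a6-Wfdc1 cells and at 379, 437, 458 and 456 CPM in the other capillary-gated cells, a mean log2 ratio of 0.54 ± 0.16. Vegfc gave 0.65 ± 0.33 and Ass1 0.60 ± 0.18. The ratios were above 1 at all 4 days for these 3 genes but below the 1.5 of the size rule at 1 or more days. Mgp, a matrix protein of the arterial list that inhibits BMP and calcification, stood at 114, 7.61, 20.9 and 25.95 CPM in Slc6a6-Wfdc1 cells and at 265, 268, 282 and 135 CPM in the other capillary-gated cells. Fabp4, a fatty acid carrier of capillary endothelium, stood at 28.6, 11.4, 36.96 and 55.9 CPM in Slc6a6-Wfdc1 cells and at 81.8, 258, 80.9 and 125 CPM in the other capillary-gated cells.

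Against the Lpl-Cadm1 cells, the capillary cells of the mirror-image rule, 3 of 2009 genes were called higher at all 4 days (0.149%) and 1 lower (0.0498%). Prss23 stood at 479, 350.1, 541 and 435 CPM in Slc6a6-Wfdc1 cells and at 219.7, 200.3, 222 and 189.9 CPM in Lpl-Cadm1 cells (1.10 ± 0.21). Cxcl12 stood at 492, 691, 748 and 615 CPM in Slc6a6-Wfdc1 cells and at 316, 304, 339.6 and 372 CPM in Lpl-Cadm1 cells (0.92 ± 0.28). Serpinb1a, an inhibitor of neutrophil proteases, stood at 313, 205, 274 and 212 CPM in Slc6a6-Wfdc1 cells and at 169, 108, 162 and 122 CPM in Lpl-Cadm1 cells (0.84 ± 0.08). The single lower gene was Cyp4b1, a cytochrome P450 of lung, at 1135, 1486, 1241 and 1322 CPM in Slc6a6-Wfdc1 cells and 1937, 2237, 2154 and 2057 CPM in Lpl-Cadm1 cells (-0.70 ± 0.10). None of the 4 genes overlapped between the groups, which the size rule at each day favours. Prss23 and Cxcl12 came from opposite ends of the group, since Cxcl12 was highest in the Slc6a6 and Wfdc1 cells and Prss23 in the Car14 and Pcp4l1 cells.

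Some further genes lay on the same side of 1 at each day without a call at all 4. Vwf stood at 175, 173, 169.7 and 258 CPM in Slc6a6-Wfdc1 cells and at 111, 124, 105 and 120.5 CPM in Lpl-Cadm1 cells (0.73 ± 0.26). Slc6a2 stood at 88.4, 85.6, 57.2 and 139.7 CPM in Slc6a6-Wfdc1 cells and at 22.4, 42.9, 23.8 and 33.3 CPM in Lpl-Cadm1 cells (1.55 ± 0.52). In the Notch pathway, which acts in arterial fate, Dll4, a ligand, stood at 107, 145, 102 and 109.8 CPM in Slc6a6-Wfdc1 cells and at 186, 212, 184 and 181 CPM in Lpl-Cadm1 cells (-0.73 ± 0.13). Hey1, a transcriptional target of Notch, stood at 186, 259, 147 and 262 CPM in Slc6a6-Wfdc1 cells and at 287, 287, 266 and 367 CPM in Lpl-Cadm1 cells (-0.53 ± 0.30). None of 5 Notch genes was called, 4 of them had a ratio below 1 at each day, and the median log2 ratio was -0.49. Neither the 8 general capillary genes (median -0.17) nor 15 interferon genes (median -0.22) held a called gene. Of these lists, 4 and 8 genes also had a ratio below 1 at each day, as did 2 of 31 nuclear oxidative phosphorylation genes. The share over all genes is not given, so the Notch count cannot be set against it.

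The levels of genes already named were then read along the balance of the rule itself. These genes were named because they differed between groups that the rule sets apart. A slope from one side to the other is therefore favoured by their choice and is a description only. All capillary-gated cells were binned by the number of set B genes minus the number of set A genes, from -3 or less to +3 or more. The mean of the daily Cxcl12 levels was 217, 324, 424, 472, 649.9, 694 and 609 CPM over the 7 bins. For Vegfc it was 59.9, 77.3, 86.1, 99.7, 111, 166 and 222 CPM, and for Serpinb1a 107, 135, 175, 185, 238, 265 and 332 CPM. Cyp4b1 ran the other way, at 2334, 2164, 1968, 1715, 1407, 1002 and 1006 CPM. Prss23 was highest at +1 and +2, at 156, 193, 267, 441, 567, 599.8 and 189 CPM. The bins held 382, 1083, 1985, 2345, 1115, 299 and 69 cells, and the last had 3 cells at d15 and 8 at d36, so its daily values spread widely. Cells with an equal count of both sets lay between the Lpl-Cadm1 side and the Slc6a6-Wfdc1 side for Cxcl12, Vegfc, Serpinb1a and Cyp4b1.

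**Figure D3:**
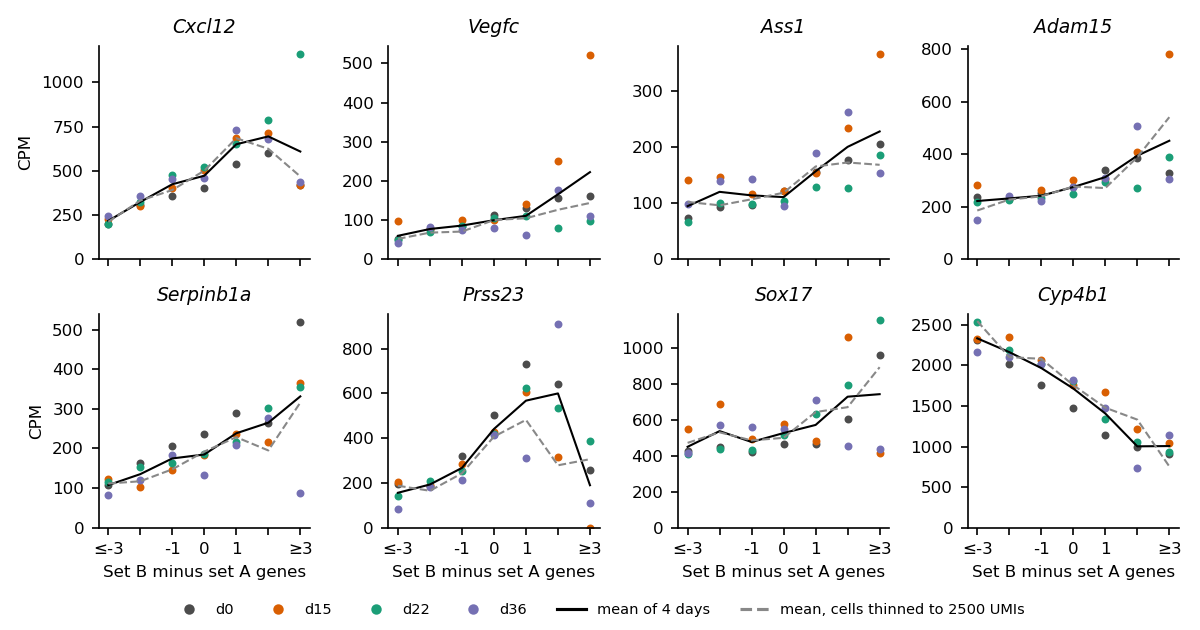
CPM (linear axes) of 8 genes outside the rule in capillary-gated cells binned by set B minus set A genes; points are days, the solid line the mean of 4 days and the dashed line the mean with cells thinned to 2500 UMIs. Cxcl12, Vegfc, Ass1, Adam15, Serpinb1a and Sox17 were higher, and Cyp4b1 lower, at +1 and +2 than at -3 or less. The choice of these genes favours such a direction, and the last bin holds 69 cells.

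The share of cells that met the rule was lower at d15 and d36. At d0 302 of 2671 cells met it (11.3%, exact binomial 95% interval 10.1 to 12.6), at d15 95 of 1507 (6.30%, 5.13 to 7.65), at d22 352 of 3230 (10.9%, 9.84 to 12.02) and at d36 85 of 1628 (5.22%, 4.19 to 6.42). The cells of d15 and d36 were shallower: the median was 7467, 3988, 7582 and 3249 UMIs in the cells that did not meet the rule. With each cell thinned to 2500 UMIs the shares were 9.88% (8.78 to 11.1), 7.35% (5.85 to 9.11), 9.35% (8.37 to 10.4) and 5.96% (4.59 to 7.59), which left out 460 cells of d15 and 604 of d36 that were too shallow. The thinned interval of d36 stayed clear of those of d0 and d22, and the interval of d15 touched both. The Lpl-Cadm1 share, in contrast, was 28.7%, 22.5%, 28.1% and 18.7% as deposited but 22.2%, 23.8%, 20.7% and 22.5% after thinning.

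**Figure D4:**
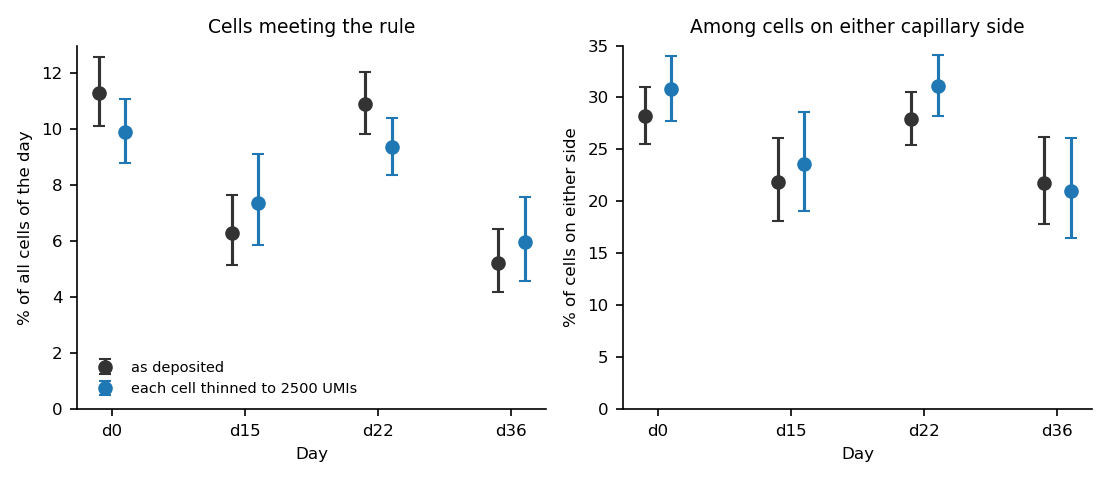
Left, share of all cells of a day that met the rule, and right, share of Slc6a6-Wfdc1 cells among Slc6a6-Wfdc1 and Lpl-Cadm1 cells together, as deposited (dark) and with each cell thinned to 2500 UMIs (blue); bars are exact binomial 95% intervals, which cover counting error only. In both panels d15 and d36 lie below d0 and d22, but the thinned d15 interval overlaps those of d0 and d22, as do the deposited ones of d15 and d36 in the right panel.

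The balance within the capillary showed the same order without depending on how many cells were aerocytes. Of the Slc6a6-Wfdc1 and Lpl-Cadm1 cells together, 28.3% (25.6 to 31.1), 21.9% (18.1 to 26.1), 27.9% (25.5 to 30.5) and 21.8% (17.8 to 26.2) were Slc6a6-Wfdc1 cells at d0, d15, d22 and d36. Thinned to 2500 UMIs the shares were 30.8%, 23.6%, 31.1% and 21.0%. Over all capillary-gated cells, with no rule on single cells, set B took 41.2%, 33.5%, 41.5% and 32.3% of the UMIs of both sets. Set B summed to 695, 589, 648 and 507 CPM at d0, d15, d22 and d36, and set A to 992, 1170, 914 and 1065 CPM. Within the Slc6a6-Wfdc1 cells set B held 73.3%, 74.9%, 78.4% and 74.2% of those UMIs. Fewer cells of the kind and less of these RNAs per cell cannot be told apart in such shares.

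The 3 comparisons between days all use the d0 cells. Within Slc6a6-Wfdc1 cells, 299 of 3039 genes were called higher (9.84%) and 388 lower (12.8%) at d15 against d0, 104 of 3634 higher (2.86%) and 186 lower (5.12%) at d22, and 267 of 3020 higher (8.84%) and 363 lower (12%) at d36. With TMM scaling the counts were 212 higher and 467 lower at d15, 147 and 150 at d22, and 204 and 446 at d36. In all other cells, 171 were called higher (4.63%) and 90 lower (2.44%) at d15, 15 (0.422%) and 57 (1.6%) at d22, and 168 (4.62%) and 133 (3.66%) at d36. These cells held 6488794 UMIs at d15 and 6379133 at d36, so counting error moves their ratios less. The numbers of calls in the groups are therefore not comparable. The 95 cells of d15 and 85 of d36 gave 525562 and 500946 UMIs, against 2872095 UMIs at d0 and 3111575 at d22. Set against the same ratio in all other cells, the day ratio was higher by the size rule for 181 genes (6.04%) and lower for 268 (8.94%) at d15, for 53 (1.57%) and 64 (1.9%) at d22, and for 230 (7.75%) and 250 (8.42%) at d36. The d15 and d36 cells were also the shallower ones, and with cells thinned to 2500 UMIs, which leaves fewer genes measured, 41 were called higher and 68 lower at d15, 25 and 32 at d22, and 37 and 62 at d36, of which 23 and 41, 9 and 13, and 19 and 17 were also called as deposited.

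MHC class II genes were lower at d15 and d36 and higher at d22 in Slc6a6-Wfdc1 cells, and the median over the list had the same sign in all other cells. At d15 all 6 measured were called lower (median log2 ratio -0.80, against -0.64 in all other cells), at d22 all 6 higher (0.70, against 1.00), and at d36 3 of 6 lower (-0.50, against -0.28). Cd74 stood at 472 CPM at d15 and 1656 CPM at d0 in Slc6a6-Wfdc1 cells (ratio 0.285, 0.2497 to 0.324), and at 299 CPM at d15 and 886 CPM at d0 in all other cells. At d22 it stood at 3312 CPM at d22 and 1656 CPM at d0 in Slc6a6-Wfdc1 cells (ratio 1.9997, 1.93 to 2.07). Median log2 ratios over all genes were 0.00, 0.00 and -0.01 at d15, d22 and d36. Of all genes, 12.8% were called lower at d15, 2.86% higher at d22 and 12% lower at d36.

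**Figure D5:**
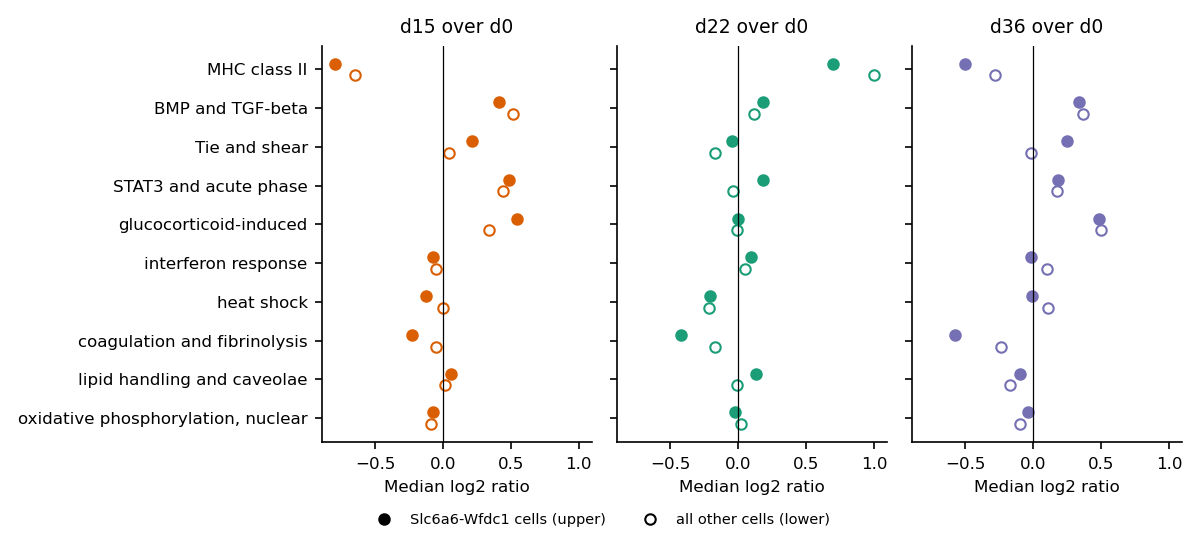
Median log2 ratio of each day over d0 for 10 gene lists in Slc6a6-Wfdc1 cells (filled) and all other cells (open), 1 panel per day; the vertical line marks no difference. MHC class II lies left of the line at d15 and d36 and right of it at d22, and the filled points of coagulation and fibrinolysis lie left of it at all 3 days.

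Foxf1, Klf2 and Gata2, transcription factors of endothelium, were called higher at d15 and d36. Foxf1, a forkhead factor of lung capillaries, stood at 671, 1555, 700.3 and 1773 CPM at d0, d15, d22 and d36 in Slc6a6-Wfdc1 cells and at 874, 1522, 898 and 1558 CPM in all other cells. At d36 its ratio to d0 was 2.64 (95% interval 2.44 to 2.86), and the log2 ratio exceeded that of all other cells by 0.57 (0.45 to 0.69). Klf2, induced by laminar flow, stood at 2563, 4395, 2428 and 5066 CPM in Slc6a6-Wfdc1 cells and at 2608, 3982, 2481 and 4346 CPM in all other cells. Klf4, its close relative, stood at 714, 1029, 804 and 1199.7 CPM, and at d15 it missed the 1.5 of the size rule (ratio 1.44, 1.31 to 1.58). Gata2, a GATA factor of endothelium, stood at 379, 675, 427 and 607 CPM. Sox18, a SOX factor of vessel growth, was called lower at d15, at 58.98 CPM at d15 and 174 CPM at d0 in Slc6a6-Wfdc1 cells (ratio 0.338, 0.227 to 0.486). In all other cells Sox18 was lower at d15 too, at 87.7 CPM at d15 and 226 CPM at d0. The difference of the log2 ratios was -0.20 (-0.73 to 0.34). Of 19 endothelial transcription factors measured at d15, 4 were called higher and 2 lower (median 0.16), and at d36 2 of 19 were higher and 1 lower (median 0.03), beside the 9.84% and 8.84% of all genes called higher at d15 and d36.

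The BMP and TGF-β genes past the size rule were mostly higher. Of these, 3 of 9 measured were called higher at d15 and none lower (median 0.41, against 0.51 in all other cells), 3 of 12 higher and 1 lower at d22 (0.18, against 0.12), and 4 of 11 higher and none lower at d36 (0.34, against 0.37). Beside them, 9.84%, 2.86% and 8.84% of all genes were called higher at d15, d22 and d36. Bmp4, a BMP ligand, stood at 73.1, 122, 140.4 and 156 CPM in Slc6a6-Wfdc1 cells and at 75.6, 83.4, 87.9 and 69.1 CPM in all other cells. At d22 its ratio to d0 was 1.92 (95% interval 1.63 to 2.28) in Slc6a6-Wfdc1 cells, with a log2 ratio above that of all other cells by 0.72 (0.46 to 0.97). Id1, a direct target of BMP receptors, stood at 713, 1206, 785 and 1278 CPM and Smad6, an inhibitor induced by them, at 155, 365, 192 and 315 CPM. Both were highest at d15 and d36. In all other cells Smad6 was also higher at d15, at 397 CPM at d15 and 237 CPM at d0.

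Some genes of the acute phase and stress response were higher at d15. Of 10 STAT3 and acute-phase genes, 4 were called higher and 1 lower at d15 (median 0.49), none at d22 (0.18), and 3 higher and 1 lower at d36 (0.19). The medians in all other cells were 0.44, -0.04 and 0.18. Lrg1 stood at 119.8, 365, 139 and 397 CPM in Slc6a6-Wfdc1 cells. It was higher at d15 elsewhere too, at 268 CPM at d15 and 136 CPM at d0 in all other cells. In Lpl-Cadm1 cells it stood at 215 CPM at d15 and 79.0 CPM at d0. At d36, however, 1 Slc6a6-Wfdc1 cell held 56.8% of its UMIs, and in members with at least 3 genes of set B the d36 log2 ratio was -1.87. Stat3 itself stood at 113, 213, 101 and 202 CPM. Sgk1, a kinase induced by glucocorticoids, stood at 519, 1058, 901 and 838 CPM, above d0 at all 3 later days, and 2 of 6 glucocorticoid-induced genes were called higher at d15 (median 0.55) and at d36 (0.49). Their medians in all other cells were 0.34 and 0.50. Of all genes, 9.84% and 8.84% were called higher at d15 and d36 in Slc6a6-Wfdc1 cells. S1pr1, the receptor for sphingosine 1-phosphate that supports endothelial junctions, stood at 428 CPM at d15 and 161 CPM at d0 (ratio 2.67, 2.26 to 3.13), with a log2 ratio above that of all other cells by 0.77 (0.53 to 1.02). At d36 Gadd45g, a stress-induced growth arrest gene, stood at 365 CPM at d36 and 119 CPM at d0 (ratio 3.08, 2.56 to 3.69), but its log2 ratio was -0.14 in members with at least 3 genes of set B.

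Thbd and Pros1, which limit clotting, were called lower at each later day. Thbd, thrombomodulin, stood at 1065, 656, 620.3 and 639 CPM in Slc6a6-Wfdc1 cells and at 1082, 651, 569.8 and 487 CPM in all other cells, and Pros1, protein S, at 115, 64.7, 62.3 and 51.9 CPM in Slc6a6-Wfdc1 cells. For both, the d0 value was the highest of the 4. Of 7 coagulation and fibrinolysis genes, 1 was called higher and 2 lower at d15 (median log2 ratio -0.23), none higher and 2 lower at d22 (-0.42), and 1 higher and 3 lower at d36 (-0.58). The medians in all other cells were -0.05, -0.17 and -0.24. Of 10 vasoactive receptors and enzymes in Slc6a6-Wfdc1 cells, 1 was called higher and 1 lower at d15 (median 0.21), none higher and 2 lower at d22 (0.09), and none higher and 2 lower at d36 (-0.04). Over all genes in these cells, 9.84% were called higher and 12.8% lower at d15, 2.86% and 5.12% at d22, and 8.84% and 12% at d36. Npr1, the receptor of atrial natriuretic peptide, stood at 162, 53.3, 72.95 and 53.9 CPM in Slc6a6-Wfdc1 cells and at 129, 85.1, 68.7 and 76.3 CPM in all other cells. At d15 its log2 ratio to d0 differed from that of all other cells by -0.99 (-1.55 to -0.43). Aplnr, the apelin receptor of general capillary cells, stood at 316, 179, 208 and 99.8 CPM, and Cav2, a caveolin of endothelial vesicles, at 1038, 432, 736 and 383 CPM, both lowest at d36. Both were lower at d36 in all other cells too. There Aplnr stood at 211 CPM at d0 and 87.8 CPM at d36, and Cav2 at 1146 and 446 CPM. Ace, angiotensin-converting enzyme, stood at 704, 622, 431 and 459 CPM in Slc6a6-Wfdc1 cells.

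Cyp1a1 was far higher at d0 than at any later day. This target of the aryl hydrocarbon receptor stood at 860.3, 36.2, 63.95 and 47.9 CPM in Slc6a6-Wfdc1 cells and at 1238, 34.2, 55.7 and 50.2 CPM in all other cells, with the same order in both. Tppp3, a microtubule-binding protein, stood at 127 CPM at d22 and 354 CPM at d0 in Slc6a6-Wfdc1 cells (ratio 0.358, 0.318 to 0.402), and its log2 ratio minus that of all other cells was -1.41 (-1.58 to -1.23). Of 10 arterial genes, 1 was called higher and 2 lower at d15 (median 0.35), 2 and 1 at d22 (0.05), and none higher and 2 lower at d36 (-0.13). Of 7 venous genes, none was called higher and 2 lower at d15 (median -0.23, against 0.33 in all other cells), and of 8, none and 1 at d22 (-0.25) and 1 and 3 at d36 (-0.26). The venous medians in all other cells were -0.28 at d22 and -0.27 at d36. Over all genes in Slc6a6-Wfdc1 cells, 9.84% were called higher and 12.8% lower at d15, 2.86% and 5.12% at d22, and 8.84% and 12% at d36. None of 31 nuclear oxidative phosphorylation genes was called at any of the 3 days.

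The genes with the lowest ratios rested on 1 or a few d0 cells. Hbb-bs, a haemoglobin chain, had 2642 CPM at d0 in 10 cells, with 99.8% of its UMIs in 1 cell, and no UMI at d15, so it was at least 463-fold lower at d15 against a floor of 3 counts. Inmt, a methyltransferase of lung stroma, had 128 CPM at d0 in 14 cells and no UMI at d15, at least 22.4-fold lower. Wfdc2, an epithelial secreted protein, had 69.6 CPM at d0 in 5 cells and none at d15 or d36. At d22, Ccl21a, the lymphatic chemokine, stood at 284 CPM at d22 and 22.6 CPM at d0 with 54.4% of its UMIs in 1 cell, and the 8 lymphatic genes summed to 398 CPM at d22, against 55.4 CPM at d0. Leaving out genes with over 25% of UMIs in 1 cell gave 297 higher and 303 lower at d15, 103 and 161 at d22, and 260 and 275 at d36.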

How the data were processed

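Single-cell 3′ libraries of FACS-isolated mouse lung endothelial cells were read from 1 deposited table of UMI counts (28692 genes, 9036 cells, 10850 genes with no UMI), made with Cell Ranger 2.1.1 on mm10, per the submitters' processing notes. For the annotation and the cell filters, the sources used here state nothing. Unused columns of per-sample values numbered 0. Columns name the day only, so the 4 libraries of a day form 1 pooled sample. The gate genes, members and 52 lists were chosen with earlier results of these data known.

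Counts were summed per group and day and scaled to CPM (UMIs of a gene per 1000000 UMIs of the group). Ratios carry exact binomial 95% intervals. Mean log2 ratios used a pseudocount of 1 CPM. Means over days describe 4 unlike days, not replicates. Named genes were the 12 called genes of each direction with the largest mean log2 ratio against all other cells, 10 against Lpl-Cadm1 cells, 6 per direction and day, 3 per direction for differences of day ratios, and up to 3 per list. Other named genes were chosen after their values were seen. No doublet caller was run. As an alternative the 2% of cells with the highest UMI counts were left out. Total UMIs of the Slc6a6-Wfdc1 cells ran between 500946 and 3111575 per day. Scripts were tested on simulated data. Python 3.11.15, numpy 2.4.6, scipy 1.17.1, pandas 2.3.3, matplotlib 3.10.9 and edgeR 4.0.16 (TMM factors only) were used.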

Additional observations from a re-analysis of the deposited data

Results flagged for a closer look

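Among the genes named by rule between days, 18 ratios of a later day to d0 lay on opposite sides of 1 in Slc6a6-Wfdc1 cells and in all other cells, with both intervals from counting error clear of 1. None of these differences was tested across mice or libraries, since each day is 1 pooled sample. The differences are given as Slc6a6-Wfdc1 cells minus all other cells.

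At d15, Glg1, a Golgi glycoprotein, differed by 1.46, Polr3gl, a subunit of RNA polymerase III, by 1.37 and Smc3, a cohesin subunit, by 1.34. In Slc6a6-Wfdc1 cells Glg1 stood at 116 CPM at d15 and 74.2 CPM at d0, Polr3gl at 122 CPM at d15 and 63.7 CPM at d0 and Smc3 at 137 CPM at d15 and 87.4 CPM at d0. In all other cells each was lower at d15 than at d0. At d36, Gapvd1 differed by 1.44, at 112 CPM at d36 and 52.6 CPM at d0 in Slc6a6-Wfdc1 cells, and Ckap4, an endoplasmic reticulum membrane protein, by 1.36, at 119.8 CPM at d36 and 57.8 CPM at d0.

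The negative differences were mostly those of haemoglobin, epithelial and stromal genes. At d15 Hbb-bs gave -15.77, Hba-a1 -14.47 and Hba-a2 -12.35, and 1 member held 99.8%, 100% and 99.9% of the d0 UMIs of the 3 haemoglobin genes. At d36 Hbb-bt gave -10.35 with 100% of its d0 UMIs in 1 member. The epithelial genes Aqp5 and Ager gave -8.89 and -8.22 at d22. Aqp5 came from 1 d0 member, and 1 member held 99.2% of Ager. Mfap4, a matrix protein of stromal cells, gave -6.10 at d22 and -7.87 at d36 with 63.4% of its d0 UMIs in 1 member, and Inmt gave -5.33 at d22 with 49.7%. At d36 Wfdc2 gave -7.44 (49.0% in 1 member), Gsn -5.54 (30.7%) and Mettl7a1 -3.83 (22.4%). Ccl21a gave 4.61 at d22, with 54.4% of its d22 UMIs in 1 member.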

How the results depend on the processing

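Depth limits most of these values: d15 and d36 hold 95 and 85 members of lower UMI count, intervals cover counting error only, and many members sit at the edge of the rule. No paired analysis was possible because the cell names carry no library number.

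The share meeting the rule at d0, d15, d22 and d36 was 11.3%, 6.30%, 10.9% and 5.22%. Thinned to 2500 UMIs it was 9.88% at d0 and 9.35% at d22. Thinned further, to a lower depth, it was 5.73%, 3.78%, 5.88% and 2.89%, and with at least 3 genes of set B 4.31%, 1.46%, 3.44% and 1.04%.

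Against all other cells, 10 genes were called higher, against 5 after thinning to 2500 UMIs (4 of them among the 10), 6 without the 2% of cells highest in UMIs (6), 5 with TMM scaling (5), and 0 against other capillary-gated cells or without aerocyte-gated cells. Lower were 43, against 19 after thinning (15 of them among the 43), 26 with at least 3 genes of set B or set A (21), 26 without the cells highest in UMIs (26), 22 with the mean of CPM per cell (18), 3 against other capillary-gated cells (3) and 4 without aerocyte-gated cells (4). Leaving out each day in turn, which asks for calls at 3 days in place of 4, gave 11 to 20 higher (20 without d15) and 48 to 64 lower. Against Lpl-Cadm1 cells, 3 were higher, against 1 after thinning, which was among the 3, and 1 with at least 3 genes of set B or set A, which was not. Lower was 1, against 0 after thinning and 2 with matched depth bins or TMM scaling (1 shared in each). Leaving out each day gave 3 to 5 higher (5 without d36) and 1 to 3 lower (3 without d15 or without d36).

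Between days, thinning gave 41 genes higher and 68 lower at d15, 25 and 32 at d22, and 37 and 62 at d36, with fewer genes measured by construction, of which 23 and 41, 9 and 13, and 19 and 17 were also called as deposited. With at least 3 genes of set B the counts were 143 and 187 at d15, 101 lower at d22, and 160 and 198 at d36, of which 49 and 67, 40, and 34 and 48 were shared. For the day ratio minus that of all other cells, the counts were 181 higher and 268 lower at d15, 53 and 64 at d22, and 230 and 250 at d36. Thinning gave 18 and 28, 14 and 13, and 12 and 33 at these days, of which 3 and 4, 2 and 1, and 2 and 4 were shared. At least 3 genes of set B gave 105 and 151 at d15 and 135 and 157 at d36, of which 12 and 17, and 19 and 21 were shared. At d22 a 10 CPM minimum gave 118 and 139 (53 and 64 shared), and Lpl-Cadm1 cells as the other side gave 94 higher (35 shared).

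Between the ends of the group, 124 genes were higher and 83 lower, against 27 and 18 after thinning (19 and 10 shared), 38 and 16 with a minimum of 200 UMIs (38 and 16 shared), and 67 higher in cells outside the rule (17 shared). These alternatives were chosen after seeing the data.

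Some directions reversed, given here as log2 values. After thinning, the Hba-a2 difference at d15 was 0.54, Ccl21a at d22 was -1.06 and its difference -0.24, Sec14l3 and Aqp5 at d22 were 1.32 and 1.22, and the Ager difference at d22 was 1.87. Without cells rich in markers of other types, the Hba-a2 difference was 0.30, and Hba-a1 and Hbb-bt at d22 were 0.20 and 0.28. With at least 3 genes of set B, Lrg1, Gadd45g and Dock9 at d36 were -1.87, -0.14 and -0.74. The cause was not tested.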
